A study of Mus musculus with 4 samples.

Results

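The Ms4a genes encode a family of small proteins that cross the cell membrane several times and have both ends in the cytoplasm. The best known relatives are Ms4a1, the B cell antigen CD20, and Ms4a2, the beta chain of the high-affinity IgE receptor of mast cells and basophils. Many of the others are found in myeloid cells, where they are used as markers of precursors, monocytes and macrophages, and several have been described as partners that modify the signal of another receptor. The 9 genes described here, Ms4a3, Ms4a4a, Ms4a4b, Ms4a4c, Ms4a6b, Ms4a6c, Ms4a6d, Ms4a7 and Ms4a8a, were taken by name from a table of 28074 gene symbols. Of the 9, 8 had a row in the table, and the level of Ms4a4a was not analysed here.

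RNA sequencing was done on leukaemic spleen cells given R848 (n = 2) and on the same cells given vehicle (control, n = 2). R848 (resiquimod) is a synthetic imidazoquinoline that activates TLR7 and TLR8, receptors for RNA in endosomes, and the study asked which genes respond to it. The R848 cells received 10 µg/ml for 3 days and the control cells an equal volume of vehicle for the same time, after a recovery of 24 hours from freezing in medium with SCF, IL6 and IL3. The cells came from 2 mice, 4050 and 4182, and those of each mouse were split between both treatments. Both groups therefore share the genotype, a floxed Dnmt3a gene with Mx1-Cre, a recombinase driven by an interferon-inducible promoter, and the Flt3 internal tandem duplication (Flt3ITD/ITD). The labels give Dnmt3a both as fl/fl and as +/-, and the genotype was not resolved here.

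Levels are given in the unit the authors name, FPKM, a read density per transcript length and library size, after undoing the deposited log2(FPKM + 1) scale. Differences are R848 minus control on the log2(FPKM + 1) scale and understate the change of genes at low levels. The linear values of the samples summed to between 950530 and 962001, nearly the same total in each sample, as TPM values would, so the unit may be TPM. The number of reads behind each value is unknown. All 10 genes of a myeloid identity list were detected in every sample, with Lyz2, the macrophage lysozyme, between 3993 and 6174 FPKM and Mpo, the myeloperoxidase of granulocyte precursors, between 1052 and 1533 FPKM. Ptprc, the common leukocyte antigen CD45, was low, between 1.27 and 2.69 FPKM. None of the 10 passed the test between R848 and control by limma (1 at an unadjusted p under 0.05, as were 1454 of all 12612 genes tested). Csf1r, the receptor of macrophage colony-stimulating factor, was at 111 and 82.5 FPKM in R848 cells of mice 4050 and 4182, against 68.3 and 52.5 FPKM in control cells, and passed as higher only with the mouse as a block (limma adjusted p = 0.241 without it and 0.0215 with it). Kit, the stem cell factor receptor, had a difference of -0.60 (limma adjusted p = 0.453). The cells were not sorted as far as the labels say, so in these samples more cells of a type and more RNA per cell cannot be told apart.

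In the fit without a block for mouse, which does not use the pairing, Ms4a7 and Ms4a6b rose with R848. The 5 further members that were higher in both mice did not pass the test in that fit. Nor did Ms4a8a, which was lower in both. By limma over 12612 genes, 2 of the 8 members passed at an adjusted p under 0.05, both higher, where 1.47% of all genes tested were called higher, 0.381% lower and 1.85% in either direction. With the mouse as a block, 5 members passed as higher and 1 as lower, where 3.4% of all genes were called higher, 1.9% lower and 5.3% in either direction. The members' median difference was 0.94, beside -0.08 over all genes tested. In 6 members both R848 samples lay above both control samples, which was so for 13.5% of all genes, and in Ms4a8a both lay below, which was so for 28.8%. Without the block, neither call held after quantile normalization, after median log ratio scaling or with no filter on low values, and neither held without the R848 sample of mouse 4182. Both held under either rescaling once the mouse was a block.

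**Figure D1:**
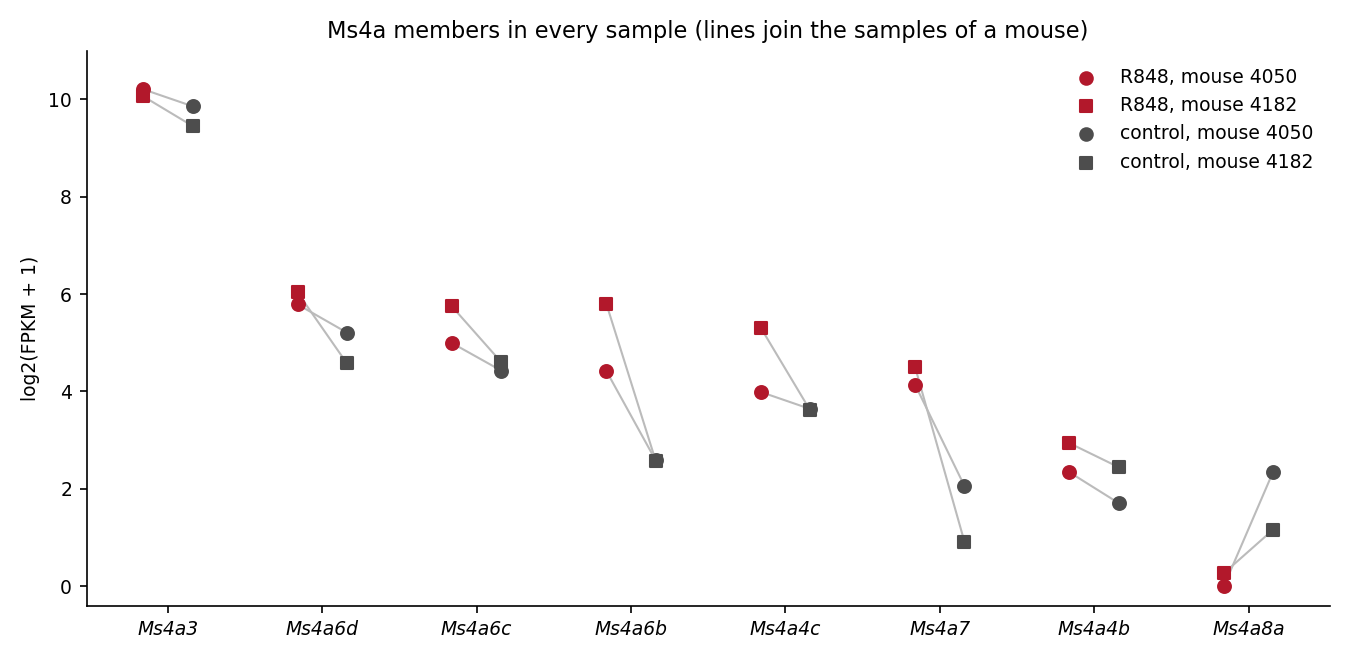
Level of each Ms4a member on the log2(FPKM + 1) scale, ordered by mean, with R848 samples (red) left of control samples (grey), circles for mouse 4050, squares for mouse 4182 and grey lines joining the samples of a mouse. The lines fall from R848 to control for 7 members and climb for Ms4a8a. The control values of Ms4a6b, and those of Ms4a4c, lie on top of each other.

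The members covered a wide span of levels. In R848 cells Ms4a3 was highest and Ms4a6d had the next mean level. Ms4a6d lay above Ms4a6c without overlap but overlapped with Ms4a6b, while Ms4a6c, Ms4a6b and Ms4a4c overlapped with each other, and Ms4a7 overlapped with Ms4a6b and Ms4a4c. Below these came Ms4a4b, and Ms4a8a was lowest. In control cells Ms4a3 was again highest, Ms4a6d and Ms4a6c overlapped, Ms4a4c and then Ms4a6b lay below them, and Ms4a4b, Ms4a8a and Ms4a7 overlapped at the bottom. Ms4a3 made up 89.3% and 81.7% of the summed FPKM of the members in R848 cells of mice 4050 and 4182, and 91.8% and 91.0% in control cells. Without Ms4a3 the members summed to 141 and 239 FPKM in R848 cells, against 82.5 and 68.9 FPKM in control cells.

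Ms4a3 (GRCm38 chromosome 19, 11629496 to 11640851, minus strand) marks the common precursors of granulocytes and monocytes in mice and is used to trace their descendants. It was at 1182 and 1069 FPKM in R848 cells of mice 4050 and 4182, against 928 and 701 FPKM in control cells. By mean level it ranked 140 of 12612 genes in R848 cells and 189 in control cells. The groups did not overlap, and the means were 1126 ± 79.5 and 814 ± 161 FPKM (SD, n = 2 each). The difference of 0.48 (SE 0.19, limma adjusted p = 0.372) did not pass the test, nor did it with the mouse as a block (adjusted p = 0.125).

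Other genes of granulocyte-monocyte precursors gave no call without the block. By limma 0 of 10 tested were called, where 1.85% of all genes were called. At an unadjusted p under 0.05 there were 2 higher and 1 lower, beside 656 higher and 798 lower of all 12612 genes tested. With the mouse as a block 0 were called higher and 1 lower, where 5.3% of all genes were called. The median difference was -0.01. Their summed level was 10344 and 10492 FPKM in R848 cells, against 8646 and 9554 FPKM in control cells. The smallest p-values belonged to Cd34, a sialomucin of stem and progenitor cells, and Srgn, the granule proteoglycan serglycin. Cd34 was at 12.1 and 17.4 FPKM in R848 cells, against 26.6 and 39.9 FPKM in control cells (difference -1.11, limma adjusted p = 0.103), and it passed as lower with the mouse as a block (adjusted p = 0.00187). Srgn had a difference of 0.41 (limma adjusted p = 0.365).

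The Ms4a6 genes are a set of tandem copies. Ms4a6b is known from mouse T cells and myeloid cells, Ms4a6c is a common marker of mouse monocytes, and Ms4a6d is a macrophage gene that has been linked to the NLRP3 inflammasome. The stretches before the RefSeq start sites of Ms4a6b and Ms4a6c are shown because the copies are alike there while their levels differed. The Ms4a6b window lies inside the gene as GENCODE M21 draws it, from 11516512, though 1 GENCODE transcript also starts at that site. They are RefSeq sequences on GRCm38.p6, plus strand, 5′ to 3′, of a window of 250 bases before the start site, without the bases that GENCODE M21 counts as exon. Capitals mark runs of at least 12 bases that the whole windows of both genes share.
Ms4a6b, chr19:11518309-11518452: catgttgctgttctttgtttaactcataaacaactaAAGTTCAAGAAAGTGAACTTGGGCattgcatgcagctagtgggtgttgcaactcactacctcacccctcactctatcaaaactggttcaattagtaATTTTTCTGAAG
Ms4a6c, chr19:11469118-11469365: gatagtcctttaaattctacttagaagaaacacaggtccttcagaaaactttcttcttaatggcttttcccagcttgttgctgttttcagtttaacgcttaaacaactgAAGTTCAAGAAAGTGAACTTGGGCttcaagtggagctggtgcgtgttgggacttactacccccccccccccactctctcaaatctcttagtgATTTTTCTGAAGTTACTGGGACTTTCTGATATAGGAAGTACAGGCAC
The longest shared run of the full windows was 48 bases, and a local alignment had 148 identical bases over 180 columns, or 82.2%. The last 106 bases of the Ms4a6b window are an annotated exon and are left out. Both the 48-base run and the local alignment reach into this exon, so part of the likeness is of exon sequence.

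Ms4a6b (chromosome 19, 11516512 to 11531256, plus strand) was at 20.5 and 54.9 FPKM in R848 cells of mice 4050 and 4182, against 4.99 and 4.96 FPKM in control cells. The control samples were nearly equal, both R848 samples lay above them, and the R848 sample of mouse 4182 was the higher one. Ms4a6b rose by 2.53 (SE 0.40, 95% interval 1.59 to 3.48, limma adjusted p = 0.0271), and with the mouse as a block limma adjusted p was 9.2e-05. The differences within the mice were 1.84 in mouse 4050 and 3.23 in mouse 4182. The call held without the R848 sample of mouse 4050 (limma adjusted p = 0.0116) and not without that of mouse 4182 (limma adjusted p = 0.0637, difference 1.84). With an R848 sample left out, the spread comes from the control samples and the prior, and the lone R848 sample is assumed to vary like them.

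Ms4a6c (11469366 to 11482192, plus strand) was at 30.9 and 52.7 FPKM in R848 cells, against 20.5 and 23.3 FPKM in control cells. The groups did not overlap, but the difference of 0.86 (SE 0.26) missed the threshold by limma (adjusted p = 0.224) and passed with the mouse as a block (adjusted p = 0.0171). Within a sample, Ms4a6b had 0.663 and 1.04 times the FPKM of Ms4a6c in R848 cells of mice 4050 and 4182, against 0.243 and 0.213 times in control cells. The copies thus stood closer in level in the R848 samples, most so in mouse 4182. Ms4a6d (11586604 to 11604849, minus strand) was at 54.3 and 64.5 FPKM in R848 cells, against 36.0 and 22.8 FPKM in control cells. Its difference of 1.02 (SE 0.24) missed the threshold by limma (adjusted p = 0.104) and passed with the mouse as a block (adjusted p = 0.00985). The block calls of Ms4a6c and Ms4a6d were lost after quantile normalization (limma adjusted p = 0.0615 and 0.0692).

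Part of the sequence of these copies is the same, which bears on how reads were divided between them. Of the different 31-base words in the GENCODE M21 transcripts of Ms4a6c, 21.9% also occurred in transcripts of another gene, most often Ms4a6b. The share was 7.84% for Ms4a6b and 8.11% for Ms4a6d, with Ms4a6c and Ms4a6b as the genes that shared most. The submitters' processing notes name kallisto, which divides reads that fit several transcripts by estimation, so the split between copies is an estimate to that extent.

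Ms4a7 and Ms4a4a are best known from macrophages, Ms4a7 also from the macrophages at the borders of the brain, and Ms4a4a as a partner of the fungal receptor dectin-1 in mice. Ms4a7 (11321039 to 11336146, minus strand) was at 16.6 and 21.7 FPKM in R848 cells of mice 4050 and 4182, against 3.16 and 0.881 FPKM in control cells. The groups did not overlap, and the means were 19.1 ± 3.56 and 2.02 ± 1.61 FPKM (SD, n = 2 each). Ms4a7 rose by 2.84 (SE 0.37, 95% interval 1.97 to 3.70, limma adjusted p = 0.0142), and with the mouse as a block limma adjusted p was 8.2e-05. By mean level it ranked 5599 of 12612 genes in R848 cells and 11262 in control cells. The call was lost without either R848 sample in turn (limma adjusted p = 0.105 without mouse 4050 and 0.200 without mouse 4182), with differences of 3.02 and 2.66. Of its 31-base words, 1.22% occurred in another gene.

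Macrophage genes went both ways beside Ms4a7. Of 14 tested, 6 rose and 3 fell by limma, where 1.85% of all genes were called. Under the block for mouse these were 7 and 4, where 5.3% of all genes were called. The median difference was 0.75, and their summed level was 1345 and 1161 FPKM in R848 cells, against 1387 and 1096 FPKM in control cells. Marco, a scavenger receptor, was at 103 and 86.5 FPKM in R848 cells, against 1.32 and 0.125 FPKM in control cells. Marco rose by 5.88 and Pf4, the chemokine platelet factor 4, by 2.02. The mannose receptor Mrc1 and osteopontin, encoded by Spp1, fell by 2.96 and 2.89. The markers of resident tissue macrophages Cd163, Folr2, Lyve1, Timd4, Cd5l and Vsig4 had means below 1 FPKM and were not tested. Which part the mixture of cells had in the level of Ms4a7 was not tested.

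The Ms4a4 copies divide between lymphoid and myeloid cells. Ms4a4b, once named Chandra, is known from mouse T cells, and Ms4a4c from mouse monocytes and as an interferon-responsive gene. Their windows before the RefSeq start site, from the same source and strand and marked in the same way, are shown because these copies too share sequence there. The Ms4a4c window lies inside the gene as GENCODE M21 draws it, from 11404770, though 1 GENCODE transcript also starts at that site.
Ms4a4b, chr19:11443308-11443552: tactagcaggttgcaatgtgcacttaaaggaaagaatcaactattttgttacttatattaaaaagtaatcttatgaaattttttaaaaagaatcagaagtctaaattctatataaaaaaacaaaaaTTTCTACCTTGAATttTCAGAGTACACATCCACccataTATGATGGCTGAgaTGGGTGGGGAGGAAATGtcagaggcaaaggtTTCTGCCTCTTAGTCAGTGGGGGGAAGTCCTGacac
Ms4a4c, chr19:11407411-11407660: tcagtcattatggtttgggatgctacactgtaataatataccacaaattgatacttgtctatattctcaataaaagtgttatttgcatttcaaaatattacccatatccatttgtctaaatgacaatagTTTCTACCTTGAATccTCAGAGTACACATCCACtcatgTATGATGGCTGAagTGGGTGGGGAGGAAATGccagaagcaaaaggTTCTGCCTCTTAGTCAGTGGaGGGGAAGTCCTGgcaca
The local alignment of the windows had 117 identical bases over 133 columns, or 88.0%, and the longest shared run was 20 bases. Near the end of the Ms4a4b window separate shared runs adjoin, so their capitals form a longer stretch. In Ms4a4c a lower-case base lies between these runs. Of the 31-base words of Ms4a4c, 17.1% occurred in another gene, most often Ms4a4b, and of those of Ms4a4b 5.20%.

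Ms4a4c (11404770 to 11427246, plus strand) was at 14.9 and 38.7 FPKM in R848 cells of mice 4050 and 4182, against 11.5 and 11.3 FPKM in control cells. The control samples were nearly equal, and the R848 sample of mouse 4050 lay only a little above them. The difference of 1.02 (SE 0.39) missed the threshold by limma (adjusted p = 0.350) and passed with the mouse as a block (adjusted p = 0.0452), with 0.35 in mouse 4050 and 1.70 in mouse 4182. This block call was lost after quantile normalization (limma adjusted p = 0.148) and median log ratio scaling (limma adjusted p = 0.129). Ms4a4b (11443553 to 11467055, plus strand) was at 4.06 and 6.66 FPKM in R848 cells, against 2.26 and 4.44 FPKM in control cells. Here the groups overlapped, each mouse was higher with R848, and the difference of 0.57 (95% interval -0.19 to 1.32) did not pass by limma without the block (adjusted p = 0.581) or with it (adjusted p = 0.245).

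Markers of T and NK cells were present in the same samples at differing levels. Of 12 T cell markers tested, 3 rose and 0 fell by limma, where 1.47% of all genes were called higher. Under the block for mouse these were 5 and 0, where 3.4% of all genes were called higher. The summed level over all 18 was 50.1 and 55.4 FPKM in R848 cells, against 40.2 and 35.4 FPKM in control cells. Trbc1, a constant segment of the T cell receptor, was at 2.62 and 3.99 FPKM in R848 cells, against a listed 0 and 0.206 FPKM in control cells. Cd3g, a chain of the CD3 complex, was at 2.15 and 3.49 FPKM in R848 cells, against a listed 0 and 0.272 FPKM in control cells. Cd3e, Cd247, Cd4, Cd8b1, Cd5 and Bcl11b had means below 1 FPKM. Of 4 NK cell markers tested, 0 passed by limma. At an unadjusted p under 0.05, 2 were higher, as were 656 of all 12612 genes tested. With the mouse as a block 1 passed as higher, where 3.4% of all genes were called higher. Xcl1, a chemokine of NK and T cells, was at 1.35 and 2.73 FPKM in R848 cells, against a listed 0 and 0.105 FPKM in control cells. Klrk1, the activating receptor NKG2D, had a difference of 1.06. The NK cell markers summed to 51.2 and 51.5 FPKM in R848 cells, against 26.2 and 59.2 FPKM in control cells. Most of this sum was Gzmb, the protease granzyme B, at 39.9 and 35.8 FPKM in R848 cells, against 19.9 and 52.7 FPKM in control cells. On the T cell list, the adaptor Lat was at 20.0 and 13.9 FPKM in R848 cells, against 21.5 and 16.8 FPKM in control cells. Both genes were named after their values were seen, and the groups overlapped in both. The part of T or NK cells in the levels of Ms4a4b and Ms4a6b was not tested.

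Ms4a8a was the member that was lower with R848. The gene (11067471 to 11081102, minus strand) is known in mice from macrophages activated by glucocorticoid and IL-4 and from tumour-associated macrophages. It was listed at 0 and at 0.202 FPKM in R848 cells of mice 4050 and 4182, against 4.12 and 1.24 FPKM in control cells. The groups did not overlap, and the control sample of mouse 4050 was the highest. The means were 0.101 FPKM in R848 cells and 2.68 FPKM in control cells. Ms4a8a thus reached the filter of 1 FPKM through control cells alone, the group where it is higher. The difference of -1.63 (SE 0.40) missed the threshold by limma (adjusted p = 0.125) and passed with the mouse as a block (adjusted p = 0.0110), with -2.36 in mouse 4050 and -0.90 in mouse 4182. The block call was lost after quantile normalization (limma adjusted p = 0.0529) and median log ratio scaling (limma adjusted p = 0.0775). Without the block, a call was made when the control sample of mouse 4182 was left out (limma adjusted p = 0.00273) and not when that of mouse 4050 was (limma adjusted p = 0.134, difference -1.03). All 4 values lie near the lower end of the scale, and the depth behind them is unknown.

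**Figure D2:**
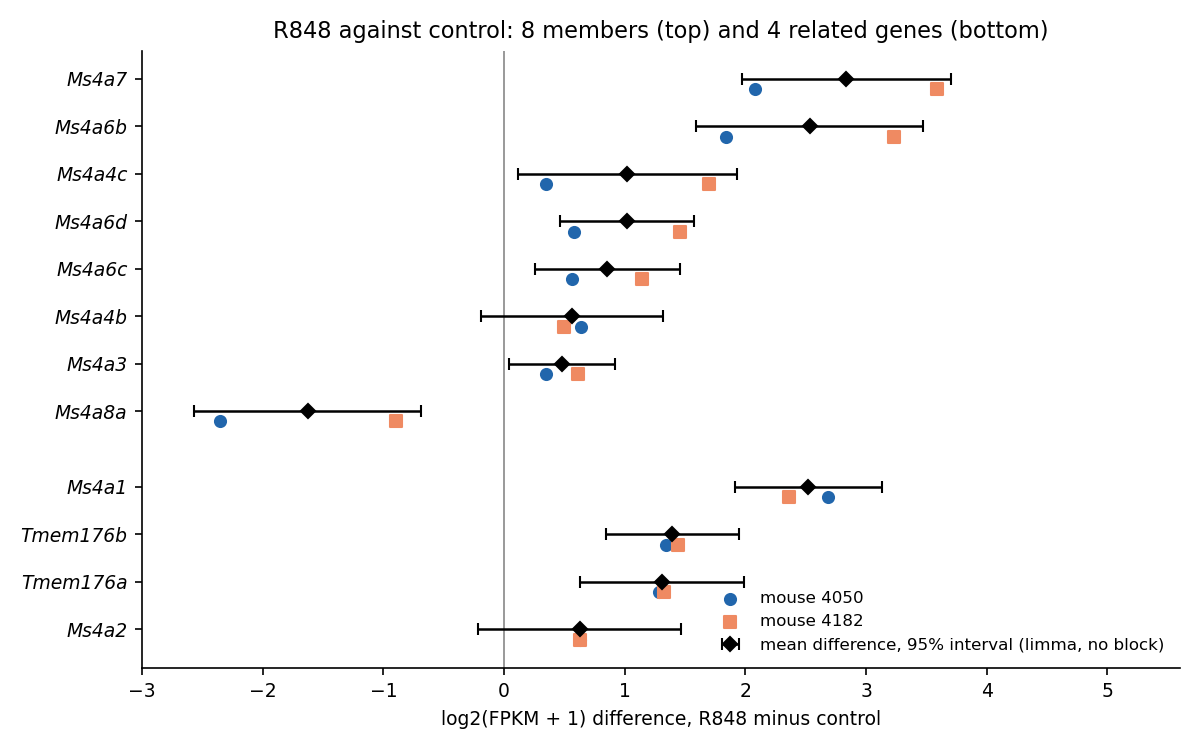
Difference of log2(FPKM + 1), R848 minus control, for the 8 members (top) and 4 related genes (bottom). Diamonds and bars give the mean difference and its 95% interval by limma without the block, and circles and squares the difference within mouse 4050 and mouse 4182. Ms4a7 and Ms4a6b lie at 2.84 and 2.53, Ms4a8a lies at -1.63, and the squares lie to the right of the circles for all members but Ms4a4b.

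The mice differed in the size of the change more than in its direction. Of the 7 members higher in both mice, which was so for 22.1% of all genes tested (38.8% were lower in both), 6 had the larger difference in mouse 4182. Of all genes tested, 12.6% were higher in both mice with the larger difference in mouse 4182, which is most of the 22.1%. The members' median difference was 0.57 in mouse 4050 and 1.30 in mouse 4182, beside 0.00 and -0.16 over all genes tested. With 1 sample per mouse and treatment, a difference between the mice could not be tested.

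Interferon-stimulated genes, a set that several Ms4a genes have been reported with, moved in the same samples. Of 33 tested, 22 rose and 0 fell by limma, where 1.47% of all genes were called higher. Under the block for mouse these were 31 and 0, where 3.4% of all genes were called higher. The median difference was 1.88, and this list too was higher in mouse 4182 (2.29) than in mouse 4050 (1.52). Their summed level was 1424 and 2600 FPKM in R848 cells of mice 4050 and 4182, against 346 and 388 FPKM in control cells. Iigp1, an immunity-related GTPase, was at 42.0 and 188 FPKM in R848 cells, against 0.301 and 0.316 FPKM in control cells. Gbp2, a guanylate-binding protein, was at 161 and 438 FPKM in R848 cells, against 9.18 and 10.3 FPKM in control cells. In these genes the R848 sample of mouse 4182 was the highest of the 4. This was so too for every member with a row except Ms4a3 and Ms4a8a. Of the tested relatives it was so for Tmem176a and Tmem176b, and not for Ms4a1 or Ms4a2. The share of all genes with this pattern was not computed, so no link between the members and the interferon genes is drawn from it. Tlr7, a receptor of the drug, had a difference of 0.33 (limma adjusted p = 0.707).

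Short motifs were searched on both strands in the 250 bases before the start sites of the members in the RefSeq table, which held windows for 8 of the 9 members and none for Ms4a6d. An interferon response element spelled GAAA, any 2 bases and GAAA was in 0 of the 8 members and in 3.04% of the promoters of 27025 genes. A gamma-activated site spelled TTCNNNGAA was in 0 of the 8 and in 7.18% of all, and a C/EBP word spelled TTGCNNAA in 0 of the 8 and in 9.55% of all. The ETS or PU.1 word GAGGAA was in the windows of Ms4a4b and Ms4a4c, 64 and 61 bases before the start site, and in 23.1% of all. An NF-kB word spelled GGGA, any 4 bases and CC was in Ms4a4a, as 2 matches that overlap, in Ms4a6c, and in 17.3% of all. No match says only that these letters are not in these windows.

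Monocyte genes, where Ms4a6c and Ms4a4c are commonly found, went both ways. Of 16 tested, 2 rose and 1 fell by limma, where 1.85% of all genes were called, with a median difference of 0.32. With the mouse as a block 5 rose and 3 fell, where 5.3% of all genes were called. The antibody receptors Fcgr4 and Fcgr1 rose by 2.90 and 2.28. Fcgr1 was at 34.8 and 42.1 FPKM in R848 cells, against 9.16 and 5.42 FPKM in control cells. Klf4, a transcription factor of monocytes, fell by 1.88, to 1.03 and 0.886 FPKM in R848 cells, against 5.90 and 6.51 FPKM in control cells. The summed level of the list was 10034 and 10324 FPKM in R848 cells, against 8946 and 7193 FPKM in control cells. Its largest part was Lyz2, at 6174 and 4920 FPKM in R848 cells, against 5690 and 3993 FPKM in control cells, with overlapping groups.

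**Figure D3:**
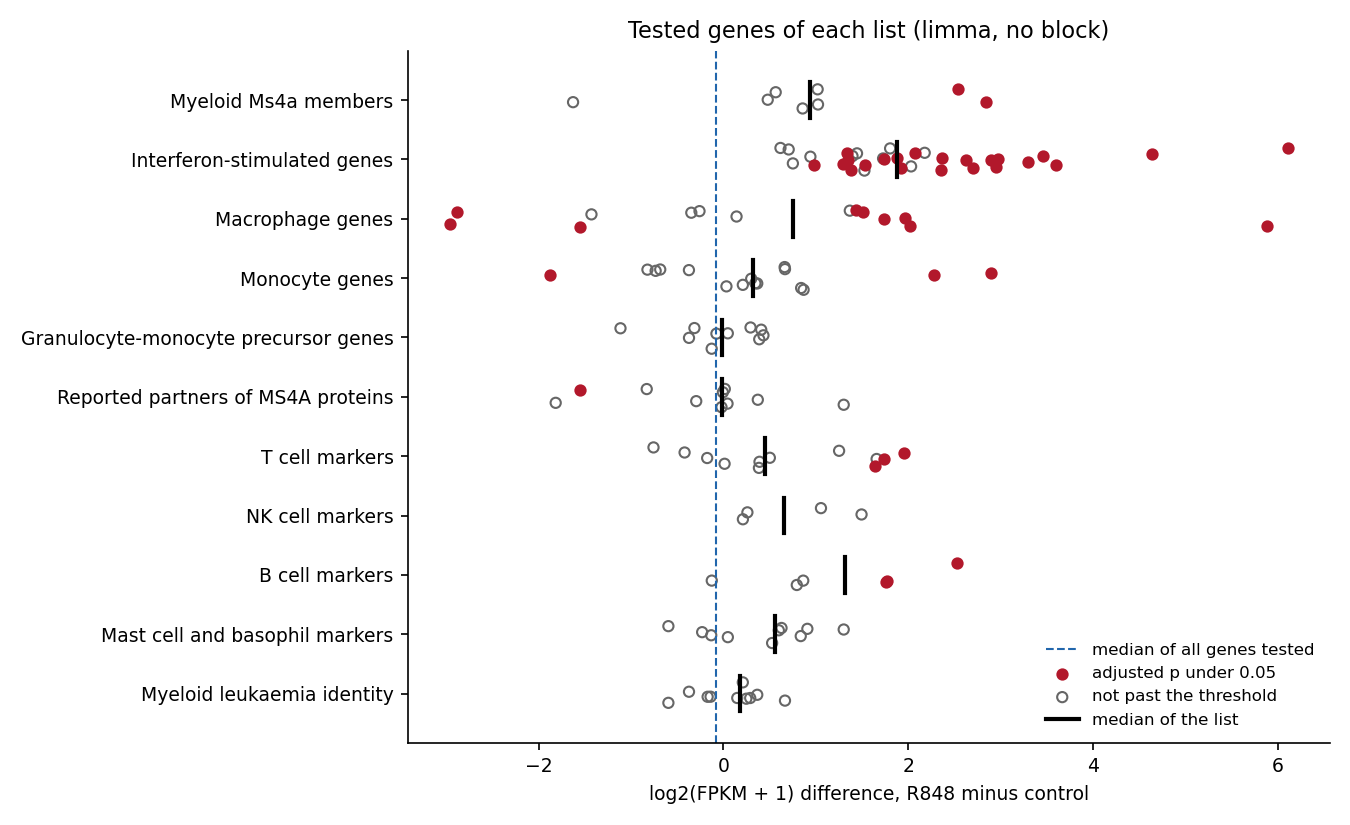
Difference of log2(FPKM + 1), R848 minus control, of each tested gene in the Ms4a set and 10 other lists. Filled red points passed limma without the block at an adjusted p under 0.05, open points did not, black bars are list medians and the dashed line is the median of all genes tested. The Ms4a median of 0.94 lies between those of the interferon list (1.88) and of the precursor list (-0.01).

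Proteins reported to act with Ms4a family members included Trem2, which fell. Of 10 tested, 0 rose and 1 fell by limma, where 1.85% of all genes were called, with a median difference of -0.01 (with the mouse as a block, 1 was called higher and 2 lower, where 5.3% of all genes were called). Trem2, a lipid receptor of macrophages whose soluble form has been tied to the MS4A gene region in humans, was at 10.7 and 11.5 FPKM in R848 cells, against 40.4 and 29.5 FPKM in control cells, and fell by 1.55 (limma adjusted p = 0.0144). Clec7a, which encodes dectin-1, was at 10.8 and 15.2 FPKM in R848 cells, against 71.2 and 31.9 FPKM in control cells, and passed as lower only with the mouse as a block (limma adjusted p = 0.0624 without it and 0.00163 with it). Cdkn3, the phosphatase that the human counterpart of Ms4a3 binds, was at 56.8 and 43.9 FPKM in R848 cells, against 48.3 and 50.7 FPKM in control cells, with overlapping groups.

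Outside the set, 2 relatives rose with R848. Of 13 other genes of the MS4A family or like it, 10 had a row and 4 were tested. Ms4a1 and Tmem176b rose by limma, 2 of 4 (3 with the mouse as a block). Of all genes tested, 1.47% were called higher, and 3.4% with the block. Ms4a1 was at 7.45 and 5.05 FPKM in R848 cells of mice 4050 and 4182, against 0.313 and 0.181 FPKM in control cells, and rose by 2.52 (SE 0.26, limma adjusted p = 0.00553). Other B cell markers moved beside it: of 6 tested, Ms4a1 included, 3 rose (under the block for mouse, 4), beside the same shares of all genes. The list summed to 46.2 and 46.8 FPKM in R848 cells, against 17.0 and 19.7 FPKM in control cells. The largest part of this sum was Cd79b, at 23.0 and 29.2 FPKM in R848 cells, against 12.8 and 14.9 FPKM in control cells. Cd79a, a chain of the B cell receptor, rose by 1.77, while Pax5, Cr2, Blk and Ebf1 had means below 1 FPKM. The part of B cells in these levels was not tested.

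Tmem176a and Tmem176b, a pair of related membrane genes on chromosome 6 known from dendritic cells and macrophages, were higher together. Tmem176b was at 48.1 and 69.5 FPKM in R848 cells, against 18.4 and 24.9 FPKM in control cells, and rose by 1.39 (limma adjusted p = 0.0340). Tmem176a was at 33.0 and 53.1 FPKM in R848 cells, against 12.9 and 20.6 FPKM in control cells, with a difference of 1.31 (limma adjusted p = 0.0905, and 4.4e-04 with the mouse as a block). The groups did not overlap for either gene. These genes overlap on opposite strands, and whether the counting used strand is not given in the sources used here.

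Ms4a2 was at 50.8 and 27.4 FPKM in R848 cells of mice 4050 and 4182, against 32.6 and 17.4 FPKM in control cells. The groups overlapped while the change was nearly the same in both mice (0.63 each). By limma the adjusted p was 0.581, and 0.0523 with the mouse as a block. It was 0.0445 with the block after median log ratio scaling. Of 10 mast cell and basophil markers tested, Ms4a2 included, 0 passed by limma, where 1.85% of all genes were called. At an unadjusted p under 0.05, 3 were higher, as were 656 of all 12612 genes tested. With the mouse as a block 2 rose, where 3.4% of all genes were called higher. These were Fcer1a, the alpha chain of the IgE receptor, and the basophil protease gene Prss34. Fcer1a was at 6.22 and 12.7 FPKM in R848 cells, against 2.52 and 3.61 FPKM in control cells, and Prss34 had a difference of 0.91. The list summed to 2923 and 1733 FPKM in R848 cells, against 1935 and 1856 FPKM in control cells. The remaining relatives with a row, Ms4a4d, Ms4a5, Ms4a10, Ms4a13, Ms4a15 and Ms4a20 (listed as 1700017D01Rik), stayed below 1 FPKM in every sample.

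The 9 members lie in 1 gene cluster on chromosome 19. GENCODE M21 lists 35 genes, 22 of them protein coding, in the 678.6 kb from Ms4a10 to Ms4a3 (10962293 to 11640851). Of these, 20 had a row and 11 were tested, with 4 called higher and 0 lower by limma (7 and 1 with the mouse as a block). Of all genes tested, 1.47% were called higher and 0.381% lower, or 3.4% and 1.9% with the block. The 4 were Ms4a7, Ms4a6b and Ms4a1, already counted above, and AW112010, described below. Members on both strands were higher with R848, and Ms4a8a lies at one side, apart from the other members. Its closest tested neighbour, AW112010, a long noncoding RNA chosen for mention after its values were seen, was at 160 and 254 FPKM in R848 cells, against 20.7 and 18.7 FPKM in control cells. AW112010 rose by 3.29 (limma adjusted p = 0.00155), while Ms4a8a beside it was lower. Ms4a4d, next to Ms4a6b, was below 1 FPKM in all 4 samples.

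**Figure D4:**
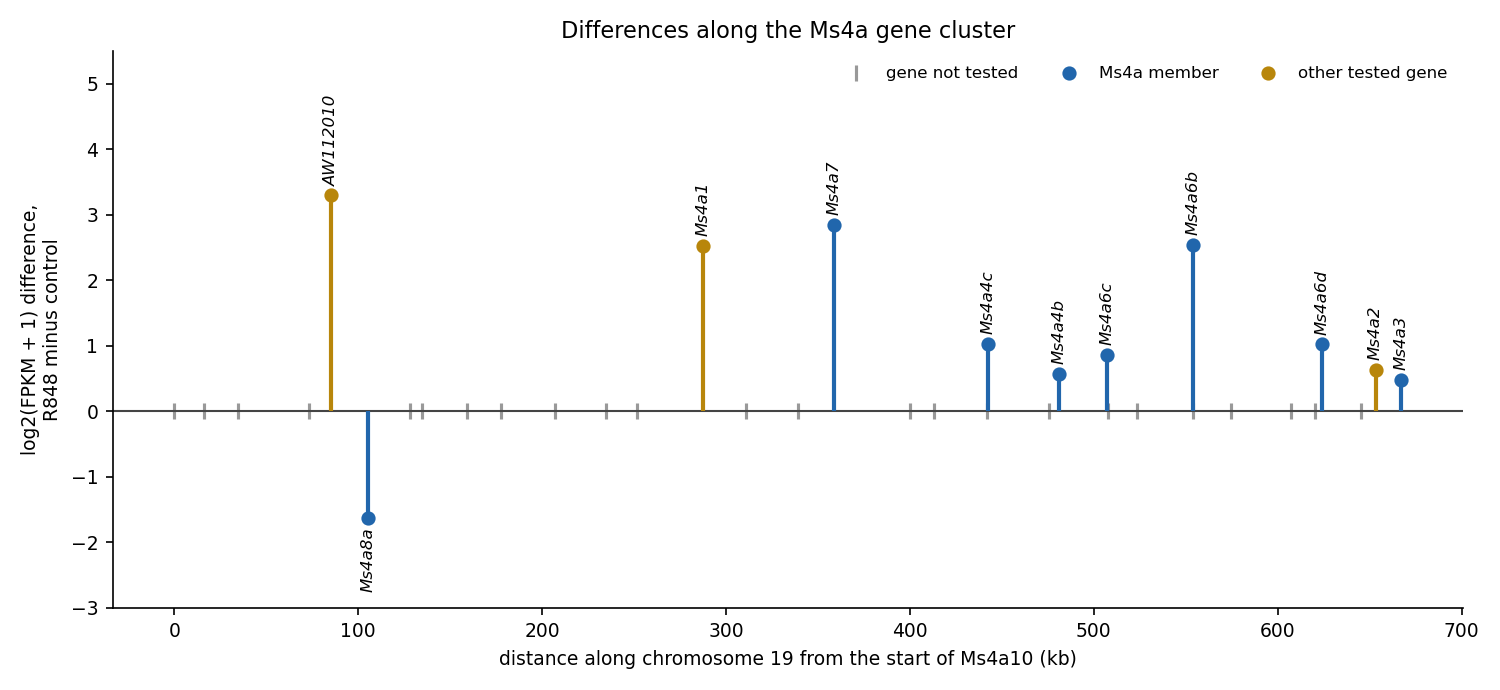
Difference of log2(FPKM + 1), R848 minus control, of the 11 tested genes of the cluster against the distance of each gene's lower coordinate from that of Ms4a10, in kb. Blue stems are Ms4a members, ochre stems are other tested genes and grey ticks are genes that were not tested. Ms4a8a at 105.2 kb points down beside AW112010 at 85.3 kb, and the members from Ms4a7 at 358.7 kb onward point up.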

How the data were processed

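The members and gene lists were chosen with earlier results of these data known. Per the submitters' processing notes, the tools were kallisto with mm10, and their versions and the annotation are not given in the sources used here. Per the labels, reads were paired and 150 nucleotides long from a stranded kit, and both ribosomal RNA depletion and an mRNA kit are named, so it is unclear which RNA was captured. The authors deposited log2 values, named log2 FPKM. Their linear sums are nearly equal, as TPM sums would be, so the unit may be TPM. They hold no counts, so depth is unknown and no count test or counting interval is given.

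Of 28192 rows, 27 symbols turned into dates and 91 repeats (the highest mean was kept) were dropped. The test was limma 3.58.1 (R 4.3.3), two-sided, with a trend in the variance prior, on log2(FPKM + 1) of the 12612 genes whose mean over all samples reached 1 FPKM. P-values were adjusted over all of these by Benjamini-Hochberg, with calls at 0.05. Some genes reached the filter through 1 group alone, such as Ms4a8a through control cells and Ms4a1, Trbc1, Cd3g and Xcl1 through R848 cells. For such genes the values that met the filter are also those behind the difference. Samples with the same number come from the same mouse, per the labels, and their deviations from the group means correlated at 0.289 across genes. Values are from the fit without a block, which does not use the pairing of samples by mouse. Those with a block for mouse are printed beside them where they change a gene's call or a list's count. The p-values rest on 2 residual degrees of freedom, or 1 with the block, and on a spread shared across genes.

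The genes named are the members, their tested relatives, Tlr7 and from each list the 2 largest calls in each direction, or the 2 smallest p-values where there was no call. Clec7a, Cdkn3, AW112010, Lyz2, Ptprc, Gzmb, Lat, Cd79b and Mpo were added after their values were seen. Coordinates are of GENCODE M21 on GRCm38, sequences are of RefSeq on GRCm38.p6, and promoters were aligned with Biopython 1.88. Alternatives were the block, a pseudocount of 0.1, no filter, a filter of 5 FPKM, quantile normalization, median log ratio scaling, no trend in the prior and leaving out each sample. The rescalings with the block were added after seeing the data. Tested on simulated data for R848 against control (12612 genes), the fit called 59.7% of 67 genes changed by 1 and 98.5% of 67 changed by 2 on the log2 scale, with 18 false calls. The simulated noise used the spreads that this fit had estimated with its prior, was independent between samples and held no mouse effect. These rates therefore check the fit and do not give its power in the real samples. Figures were drawn with matplotlib 3.10.9.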

Additional observations from a re-analysis of the deposited data

How the results depend on the processing

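Each member kept its direction under every alternative that tested it, with Ms4a6b between 1.84 and 3.23, Ms4a7 between 2.26 and 3.42 and Ms4a8a between -3.77 and -1.03. Ms4a4b and Ms4a8a had no value under the filter of 5 FPKM. The counts of calls by limma, which were 233 genes, 2 Ms4a members, 2 relatives and 40 genes of the other lists, did move. With the mouse as a block they were 669, 6, 3 and 64. With no filter they were 0, 0, 0 and 0, with 1880, 5, 3 and 70 at an unadjusted p under 0.05, and more genes were tested. After quantile normalization they were 88, 0, 1 and 20, and after median log ratio scaling 106, 0, 1 and 25. Under either, 6 members were at an unadjusted p under 0.05, beside 1524 and 1520 of all 12612 genes. Neither rescaling moved the median of all genes by over 0.1. Without the block, limma adjusted p for Ms4a6b was 0.123 and 0.112 under these rescalings, and for Ms4a7 0.0743 and 0.0625. With the block, quantile normalization gave 490 genes and 2 members, and median log ratio scaling 549 genes, 4 members, 4 relatives and 64 list genes. The relatives fell to 1 call with the filter of 5 FPKM, and to 1 with no trend in the prior. Leaving out 1 sample gave 56 to 395 genes, 0 to 3 members, 0 to 3 relatives and 12 to 49 list genes. The lowest counts of genes, members and list genes came without the R848 sample of mouse 4182. Why these counts moved was not tested. With 2 mice, and depth unknown, the precision of the low values of Ms4a8a, Ms4a4b and Ms4a7 could not be stated.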
